A study of Mus musculus with 4 samples.

Results

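The genes described here are the S100a, annexin and clade B serpin genes of the mouse, together with the small proline-rich (Sprr), late cornified envelope (Lce) and transglutaminase genes Tgm1 to Tgm5 and the single genes for involucrin (Ivl), loricrin (Lor), keratinocyte differentiation-associated protein (Krtdap) and suprabasin (Sbsn). The rule for membership is the gene name and uses no measured value, although these families were picked for description with earlier results of the same arrays known. The name rule found 94 genes, measured by 133 probes, among 27194 genes with a named probe on the array. For a gene with several probes, the probe with the highest mean log2 signal stood for the gene. By family they were 13 S100 genes, 12 annexins, 27 clade B serpins, 14 Sprr genes, 19 Lce genes, 5 transglutaminases and the 4 single genes.

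The study compared tissues of the developing lower jaw and tongue in ICR mice, an outbred stock, with no genetic change or drug treatment. Total RNA came from 4 pools of dissected tissue, staged in embryonic days (E). MMA is the medial mandibular arch of 12 embryos at E9.5. LLS are the lateral lingual swellings, from which most of the front of the tongue forms, of 4 embryos at E11.5, and LMA is the lateral part of the mandibular arch of 4 embryos of that same stage. T is the tongue of 4 embryos at E14.5. The labels place MMA, LLS and T in the medial region and LMA in the lateral one. Each pool was labelled with the dye Cy3 and read on 1 single-colour Agilent array, so a tissue is represented by 1 array, and stage differs in every comparison except that of LLS with LMA. No spread between embryos or pools could be measured, no test was possible, and every difference below compares these 4 arrays.

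These families meet in the barrier of stratified epithelium, the layered sheet that covers skin, mouth and tongue. As its cells leave the basal layer they build a cornified envelope beneath the plasma membrane, in which transglutaminases cross-link loricrin, involucrin, small proline-rich and late cornified envelope proteins to one another and to annexins and S100 proteins. S100 proteins are small calcium-binding proteins, annexins bind membrane phospholipids in the presence of calcium, and several S100 proteins act as partners of an annexin. Clade B serpins are intracellular protease inhibitors, many of which are known from epithelia or white blood cells. In the embryo, a flat outer layer called the periderm covers the epithelium before it stratifies.

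Signals are given as array signal divided by the 75th percentile of that array and multiplied by the geometric mean of the 4 percentiles (467.5), which puts the arrays on 1 scale. A signal counts as detected where the scanner software marked it well above background, and this was so for 57.0% to 62.9% of the spots per array. For a probe detected in only 1 tissue of a pair, the dim side was set to the lowest detected signal of its array (18.6 to 25.4), or to its own signal where that was higher, and the fold change is a lower bound, written "at least". Close to these floors such a difference gives no direction. S100a2, detected in LMA alone, had a log2 difference of -0.021 for LMA minus MMA. The log2 differences of 171 probes printed 10 times each had an SD of 0.058 to 0.066 between repeated spots, and the scanner software's own error for a difference was about 0.20 for bright members. Both cover the spots and not the spread between embryos. Differences of 2-fold (1 on the log2 scale) or more were counted. The members had 123 such differences, of which 39 were under 2-fold with another background correction, normexp with an offset of 50, and 36 more shrank by over 1.5 times while staying at 2-fold or more. The normexp value is therefore given beside the folds it changed in this way. The offset of 50 is added to every signal and exceeds the lowest detected signals, so it shrinks folds of dim probes by construction. The 6 comparisons drawn from the 4 arrays share arrays, so their counts are not independent of one another.

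The labelled tissues were checked against marker genes. Of 12 skeletal muscle genes, the number detected was 7 for MMA, 11 for LLS, 11 for LMA and 12 for T, where their summed signal was 356320 against 5231 in LLS. All 12 arch mesenchyme genes were detected in MMA, LLS and LMA and 9 of 12 in T. All 8 lingual and oral epithelium genes were detected in MMA, LLS and T and 6 of 8 in LMA. The labels' extraction text names cerebellum as the tissue, whereas the sample labels name jaw and tongue tissue. Of 10 cerebellar genes, 5 or 6 were detected per tissue, and Gabra6, Zic2, Atoh1 and Calb1 were not well above background on any array. Others were bright somewhere: the Purkinje cell gene Pcp2 gave 51.8 for MMA, 599 for LLS, 1440 for LMA and 41.1 for T, and the granule cell gene Cbln1 gave 881 for MMA, 113 for LLS, 64.0 for LMA and 37.3 for T. The 12 endothelial genes were detected in every tissue, and 6 to 8 of 12 cartilage and bone genes were.

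Of the 94 members, 54 were detected in at least 1 tissue and 40 in none, where 31.3% of all genes were detected in none. The detected members numbered 38 for MMA, 42 for LLS, 45 for LMA and 49 for T, while the share of all genes detected was 58.5% for MMA, 61.0% for LLS, 63.8% for LMA and 61.7% for T. In all 4 tissues 33 members were detected, against 54.5% of all genes. All 13 S100 genes and 11 of 12 annexins were detected somewhere, but only 12 of 27 clade B serpins, 5 of 14 Sprr genes and 6 of 19 Lce genes were. Detected in T alone were 5 members (S100a14, Serpinb10, Sprr2f, Lce1h and Tgm5), against 2.43% of all genes.

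**Figure D1:**
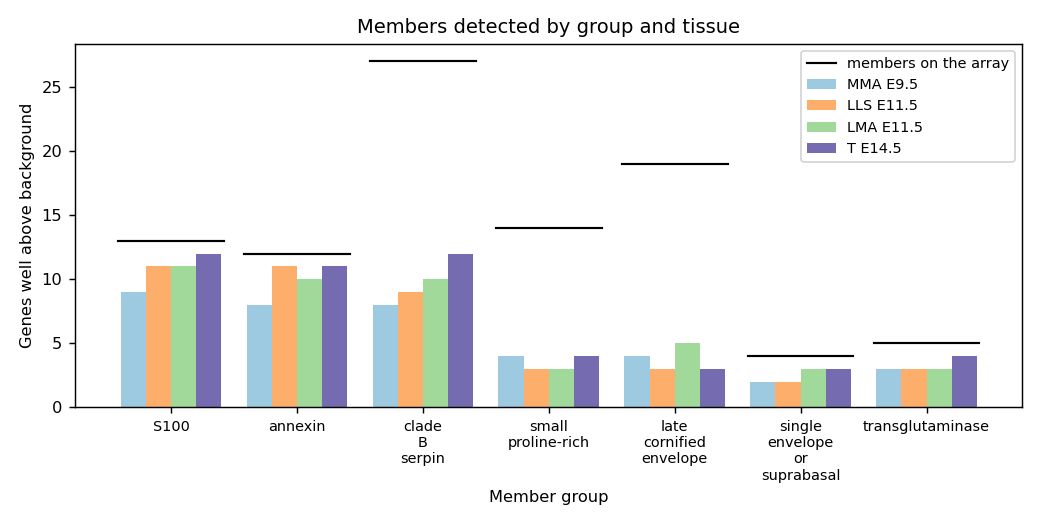
Number of genes well above background (vertical axis) in each family (horizontal axis), with a bar for each of the 4 tissues in stage order and a black line at the number of family members on the array. Nearly all S100 and annexin genes were detected, whereas most serpin, small proline-rich and late cornified envelope genes were not, and T had 12 detected serpins against 8 in MMA.

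Many genes for proteins of the late envelope were not detected. Involucrin (Ivl), Sprr1a, Sprr1b, Sprr2a1, Sprr2d, Sprr2e, Sprr2g, Sprr2h, Sprr2i and Sprr3 were not well above background in any tissue. Neither were Lce1b, Lce1d to Lce1g, Lce1i, Lce1k, Lce1m, Lce3a to Lce3c, Lce3e and Lce3f. The undetected serpins were Serpinb2, Serpinb3a, Serpinb3b, Serpinb3d, Serpinb6e, Serpinb7, Serpinb9b to Serpinb9g and Serpinb11 to Serpinb13. Of the other families, Tgm4 and Anxa13 were not detected either. A probe that is not well above background does not show that the gene is silent, only that its signal was not told from background here.

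Many of these genes had a higher signal in T than in the earlier tissues, and at most 1 compared member was 2-fold lower there. Against LLS, 24 of 50 compared members were at least 2-fold higher in T, where 12.6% of all genes were, and 0 were lower, where 6.03% of all genes were. Their median log2 difference was 0.91, against -0.08 for all genes. Against LMA, 30 of 53 members were higher in T (13.8% of all genes) and 0 were lower (7.26% of all genes), with a median of 1.37 against -0.04. Against MMA, 28 of 52 were higher in T (18.0% of all genes) and 1, S100a3, was lower (13.8% of all genes), with a median of 1.17 against -0.10. Of these higher members, 5, 6 and 12 were bounds in the comparisons with LLS, LMA and MMA. At 4-fold or more, 11 members were higher in T than in LLS (5.40% of all genes), 16 than in LMA (6.48%) and 20 than in MMA (8.85%), and 0 were lower in any of the 3 (1.07%, 1.45% and 2.13% of all genes).

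The earlier tissues differed less in these genes. In LLS, 10 of 47 members were at least 2-fold higher than in LMA of the same day (3.57% of all genes) and 1, loricrin, was lower (2.86% of all genes), with a median of 0.17 against 0.01 for all genes. LLS had 12 of 46 members higher than MMA (9.61% of all genes) and 4 lower (5.57% of all genes), with a median of 0.19 against -0.06. LMA had 7 of 47 members higher than MMA (10.5% of all genes) and 6 lower (7.12% of all genes), with a median of 0.05 against -0.09. At 4-fold or more, LLS had 4 members higher than LMA (1.05% of all genes) and 0 lower (0.411%), and 5 higher than MMA (3.20%) and 1 lower (0.870%). LMA had 2 members at least 4-fold higher than MMA (3.52%) and 3 lower (1.46%). With normexp background correction the 2-fold counts of higher members were 6 for LLS over LMA and 4 for LMA over MMA, and with dim probes kept unfiltered they were 16 and 15. Between LMA and MMA the members were 2-fold higher in 14.9% of cases against 10.5% of all genes.

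**Figure D2:**
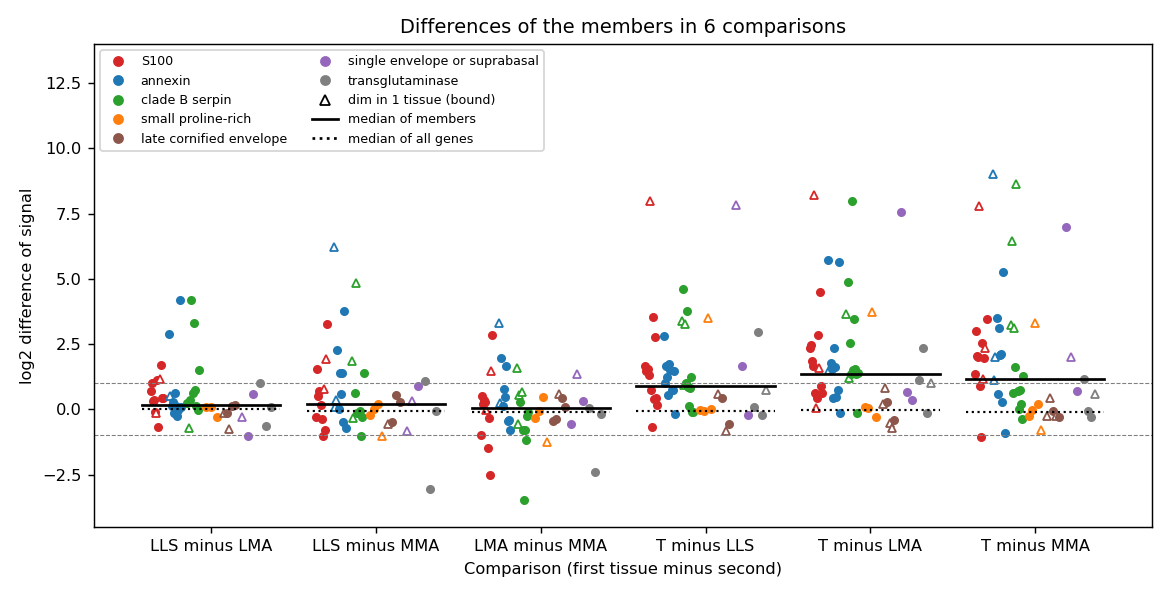
Log2 difference of each compared member (vertical axis) in the 6 comparisons (horizontal axis, first tissue minus second), coloured by family, with open triangles for bounds, a solid line at the members' median, a dotted line at the median of all genes and dashed lines at 2-fold. The 3 comparisons with T lie mostly above 0, with medians of 0.91, 1.37 and 1.17, while the 3 others centre between 0.05 and 0.19.

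By family, higher in T than in LLS were 7 of 12 S100 genes, 7 of 11 annexins and 6 of 12 serpins, where 12.6% of all genes were. The others were 2 of 3 single genes, 1 of 4 transglutaminases, 1 of 4 Sprr genes and 0 of 4 Lce genes. These are too few to be set apart from that share. The family medians were 1.38 for S100 genes, 1.24 for annexins, 0.98 for serpins, -0.01 for Sprr genes and -0.07 for Lce genes. No test of a difference between families was possible.

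Among the S100 genes, S100a14, known as an epithelial S100 gene, stood apart in T. It had 5.92 in MMA, 8.80 in LLS and 16.3 in LMA, none of them well above background, and 5486 in T. T was therefore the only tissue with a detected signal, at least 251-fold above LLS (log2 difference 7.97), at least 296-fold above LMA and at least 223-fold above MMA, and with normexp at least 57.4, 64.5 and 53.6-fold. Its neighbour S100a13, whose protein takes part in the release of fibroblast growth factor 1, gave 428 for MMA, 695 for LLS, 541 for LMA and 1720 for T. It was detected in all tissues and was 2.47-fold higher in T than in LLS. S100a16, the next gene on the chromosome, gave 3263 for MMA, 3682 for LLS, 3970 for LMA and 6126 for T. Its difference between T and LLS was 0.73 by this probe and 2.27 by its other probe, so whether it passed 2-fold depended on the probe.

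S100a10 and S100a11 encode the best known annexin partners, S100a10 that of annexin A2 and S100a11 that of annexin A1. S100a10 gave 1252 for MMA, 3626 for LLS, 1795 for LMA and 9938 for T. T was highest and MMA lowest, and LLS was 2.02-fold above LMA (1.01 by this probe, 0.73 by its other probe). This difference lay just at the threshold and was 0.87 to 0.99 under normexp, quantile, cyclic loess and median-over-probes processing and in the deposited table. S100a11 gave 1822 for MMA, 2602 for LLS, 2090 for LMA and 7603 for T. It was 2.92-fold higher in T than in LLS and differed by less than 2-fold among the 3 earlier tissues.

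S100a4 and S100a6, which lie on either side of S100a5, had their lowest signals in different tissues. S100a4, often used as a marker of fibroblasts and motile cells, gave 169 for MMA, 84.0 for LLS, 134 for LMA and 979 for T. It was 11.6-fold higher in T than in LLS (6.94-fold with normexp). LLS was 2.01-fold below MMA, which was no longer 2-fold under normexp (1.58-fold) or cyclic loess. S100a6, or calcyclin, gave 2025 for MMA, 1166 for LLS, 358 for LMA and 7985 for T. Here LMA was the low tissue, 3.26-fold below LLS and 5.66-fold below MMA, and T was 22.3-fold above LMA. S100a1, a calcium sensor known from striated muscle, gave 64.1 for MMA, 52.5 for LLS, 32.4 for LMA and 166 for T, 3.16-fold higher in T than in LLS but 1.90-fold with normexp. The skeletal muscle genes were also higher in T than in LLS, 11 of 12 of them with a median of 6.75, and their part in the S100a1 difference was not tested.

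S100a8 and S100a9, whose proteins pair as calprotectin and are known from myeloid cells and from inflamed epithelium, were low in MMA. S100a8 had 11.4 in MMA, not well above background, 93.1 in LLS, 68.1 in LMA and 126 in T. S100a9 gave 28.9 for MMA, 282 for LLS, 209 for LMA and 320 for T. Both separated MMA from the 3 later tissues, which lay within 2-fold of one another. S100a9 was 9.76-fold higher in LLS and 7.26-fold higher in LMA than in MMA, and with normexp 3.43-fold and 2.72-fold. S100a8 was at least 3.78-fold and 2.77-fold higher in the same comparisons, and with normexp it was under 2-fold (1.82 and 1.44). Macrophage genes moved the same way: 11 of 14 were higher in LLS than in MMA (median 1.94) and 12 of 14 in LMA (median 2.28), with 8 of 14 detected in MMA and all 14 in the other tissues. Their summed signal was 4777 for MMA, 5598 for LLS, 6611 for LMA and 9841 for T. Most of the sum in MMA came from Ptprc, which ran against the others. Ptprc gave 3884 for MMA, 2242 for LLS, 2483 for LMA and 1792 for T. Of 14 neutrophil and granulocyte genes, the number detected was 5 for MMA, 10 for LLS, 10 for LMA and 8 for T, and Ly6g, Ngp and Ctsg were not well above background on any array. Camp, Cebpe and Prtn3, genes of granulocyte precursors, were detected in LLS (70.5, 57.2 and 44.9) and LMA (49.0, 41.0 and 57.5) and not in MMA, as S100a8 was. In T, where S100a8 was highest, Camp (37.5) and Prtn3 (28.6) were lower than in LLS and Cebpe was not detected. Mmp9, of the same list, was also highest in T, at 161. It gave 29.5 for LLS and 131 for LMA and was not detected in MMA. Elane and Mpo, of the same list, were detected in every tissue. Elane gave 150 for MMA, 165 for LLS, 153 for LMA and 133 for T, and Mpo gave 163, 145, 347 and 44.5. The list had 2 of 10 higher in LLS than in MMA (9.61% of all genes, median 0.21). It had 3 of 10 higher in LMA than in MMA (10.5% of all genes, median 0.61). Its summed signal lay between 47128 in T and 56094 in MMA, nearly all of it from Csf3r and Itgam, and without these it was 345 for MMA, 592 for LLS, 848 for LMA and 457 for T. The part of either cell type in the S100a8 and S100a9 differences was not tested.

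The remaining S100 genes were dim. S100a3, known from the hair cuticle, gave 81.4 for MMA, 63.3 for LLS, 29.0 for LMA and 39.2 for T, and was the only member at least 2-fold lower in T than in MMA. It was not 2-fold lower there under normexp or cyclic loess processing. S100a5 was detected in LLS (41.7) and T (55.6) and not in MMA or LMA. S100a2 was detected in LMA alone, at 24.2.

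**Figure D3:**
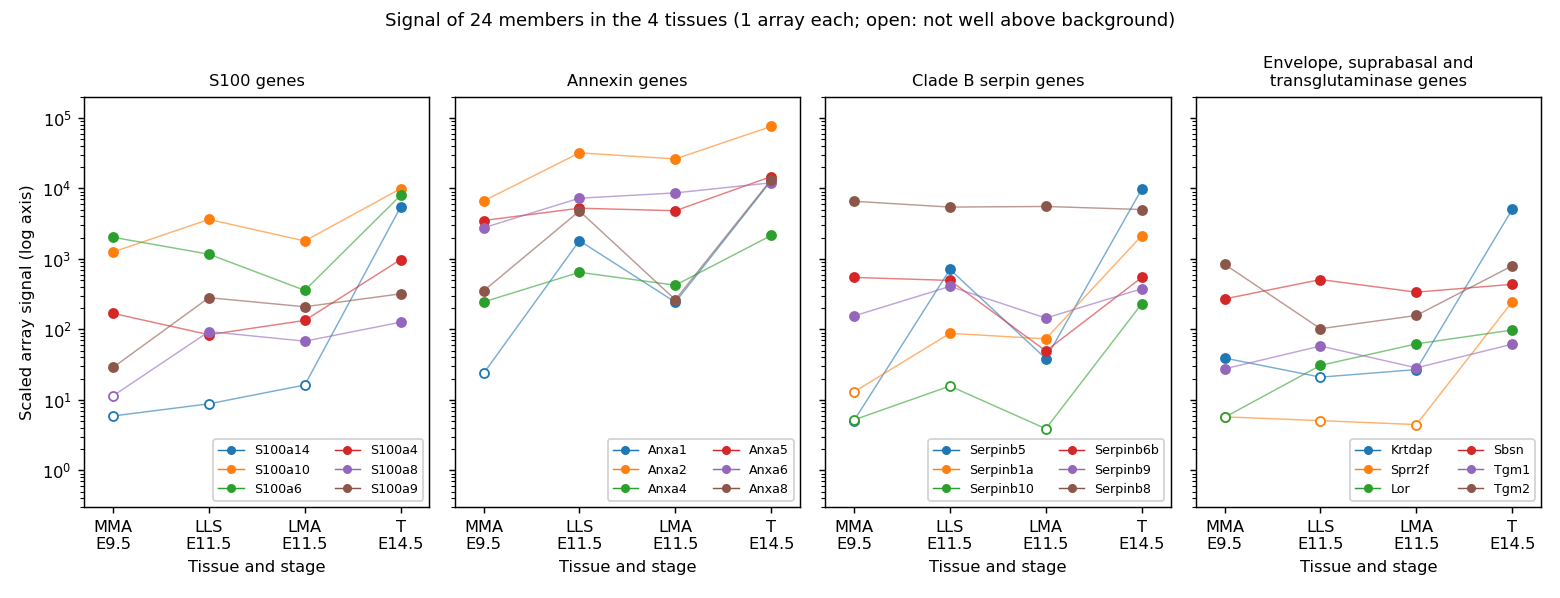
Scaled signal on a log axis for 24 members in the 4 tissues (horizontal axis, stage order), in 4 panels by family, with filled points for signals well above background and open points for those that were not. Anxa1, Anxa8 and Serpinb5 stand higher in LLS than in MMA or LMA and higher still in T, while Krtdap, S100a14 and Sprr2f stand apart in T alone.

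Among the annexins, Anxa1 and Anxa8 were both higher in LLS than in LMA or MMA and highest in T, and differed from each other between LMA and MMA. Anxa1, whose protein is cross-linked into the envelope and is also known as an anti-inflammatory mediator, had 23.8 in MMA, not well above background, 1812 in LLS, 243 in LMA and 12870 in T. It was 7.45-fold higher in LLS than in LMA, at least 73.7-fold higher in LLS than in MMA (19.0 with normexp), and 7.10-fold higher in T than in LLS. LMA was at least 9.89-fold above MMA, or 3.15-fold with normexp. The second-brightest Anxa1 probe gave 24.8 for MMA, 1674 for LLS, 203 for LMA and 9838 for T, in the same order of tissues. Anxa8, known from stratified epithelia, gave 351 for MMA, 4774 for LLS, 263 for LMA and 13344 for T. MMA and LMA were the low tissues, within 2-fold of each other (-0.42 for LMA minus MMA), with LLS 18.1-fold above LMA and 13.6-fold above MMA, and T 2.80-fold above LLS.

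Anxa2, the membrane partner of S100a10, differed in another way, since LMA was not low. It gave 6614 for MMA, 31918 for LLS, 26149 for LMA and 75584 for T. MMA was lowest, and LLS exceeded LMA by 0.29 on the log2 scale while it exceeded MMA by 2.27. A second Anxa2 probe gave 0.20 and 2.37 for the same differences. Another, well above background only in LLS and LMA, gave 0.39 against LMA and, as a bound, 0.07 against MMA. Anxa6, an annexin with more repeats than its relatives, gave 2761 for MMA, 7252 for LLS, 8625 for LMA and 11996 for T. MMA was again the low tissue, 2.63-fold below LLS, and T stood within 2-fold of LLS and LMA.

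Anxa4, known from secretory and polarised epithelia, gave 245 for MMA, 645 for LLS, 423 for LMA and 2152 for T. It was 3.33-fold higher in T than in LLS and 8.78-fold higher in T than in MMA. Anxa5, which binds phosphatidylserine on dying cells, gave 3501 for MMA, 5234 for LLS, 4818 for LMA and 14700 for T. The 3 earlier tissues lay within 2-fold of one another, and T was 2.81-fold above LLS. Anxa11, a membrane-binding annexin also found in the nucleus, was dim, with 22.6 in MMA, not well above background, 31.3 in LLS, 28.9 in LMA and 98.9 in T. T was 3.16-fold above LLS, or 1.70-fold with normexp. Anxa10 was detected in LLS (26.5) and T (53.4) only. Anxa3, Anxa7 and Anxa9 differed by less than 2-fold in every comparison by their brightest probes. Another Anxa9 probe gave 61.1 for MMA and 26.3 for LLS, a log2 difference of -1.22, and -1.26 as a bound for T against MMA.

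The clade B serpins were led by Serpinb5, the gene for maspin, an epithelial serpin of the basal layer that does not act as a protease inhibitor in the usual way. It had 5.09 in MMA, not well above background, 709 in LLS, 38.5 in LMA and 9731 in T. T was 13.7-fold above LLS and 253-fold above LMA, and LLS was 18.4-fold above LMA and at least 28.8-fold above MMA. With normexp the last 3 of these were 101, 7.91 and 8.73-fold. LMA and MMA were not told apart at 2-fold, since the bound for LMA over MMA was 1.57-fold. Serpinb1a, a mouse counterpart of the human leukocyte elastase inhibitor, had 13 in MMA, not well above background, 87.9 in LLS, 73.4 in LMA and 2135 in T. LLS and LMA were close, and T was 24.3-fold above LLS (14.7-fold with normexp). Its relative Serpinb1c was detected in LMA (36.2) and T (213) and not in MMA or LLS, with T at least 9.74-fold above LLS (3.21 with normexp). Serpinb10, known as bomapin from blood-forming cells, was detected in T alone at 231, at least 10.6-fold above LLS (3.48 with normexp). Of the 14 macrophage genes, 9 were also at least 2-fold higher in T than in LLS (12.6% of all genes) and 0 were lower (median 1.22). Of the neutrophil and granulocyte genes, 1 of 10 was higher and 2 were lower (6.03% of all genes, median -0.25). The part of these cells in the differences of Serpinb1a, Serpinb1c and Serpinb10 was not tested.

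Among the members, Serpinb6b was the one set apart by a low signal in LMA. Most general epithelial markers, described below, were low there too. In LMA against MMA, 19 of 25 of them were at least 2-fold lower and 2 were higher (median -2.49). Serpinb6b gave 546 for MMA, 495 for LLS, 49.4 for LMA and 545 for T. MMA, LLS and T lay within 2-fold of one another, and LLS was 3.32 above LMA on the log2 scale, or 2.37 with normexp. Its relatives Serpinb6a, an inhibitor of several serine proteases, and Serpinb6c had smaller dips in LMA. Serpinb6a gave 5831 for MMA, 5231 for LLS, 3348 for LMA and 9523 for T, and Serpinb6c gave 5178 for MMA, 4938 for LLS, 2968 for LMA and 8738 for T. The probes of these 2 genes share a run of 26 bases of their 60, so signal of either gene may reach both probes and the values are uncertain.

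Serpinb9, an inhibitor of granzyme B, gave 155 for MMA, 407 for LLS, 145 for LMA and 376 for T. LLS and T were high and MMA and LMA low, with LLS 2.81-fold above LMA and 2.63-fold above MMA. Serpinb3c, a relative of the squamous cell carcinoma antigens, gave 48.1 for MMA, 74.4 for LLS, 58.8 for LMA and 149 for T, and T was 2.01-fold above LLS, which was under 2-fold with normexp (0.59 on the log2 scale), quantile normalization and the deposited table. Serpinb6d gave 74.2 for MMA, 36.6 for LLS, 33.1 for LMA and 85.3 for T, with LLS 2.03-fold and LMA 2.24-fold below MMA, and 1.36-fold and 1.52-fold with normexp. Serpinb1b was detected in MMA (27.3) and T (42.2) only. Serpinb8 was even across tissues, between 5016 in T and 6565 in MMA, by a probe whose companion probe was not well above background on any array.

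Of the single genes, Krtdap, which encodes a secreted protein of the spinous layer, was set apart in T. It had 39.2 in MMA, 21.0 in LLS, where it was not well above background, 26.9 in LMA and 5038 in T. T was at least 230-fold above LLS, 187-fold above LMA and 128-fold above MMA, and with normexp the log2 differences were 5.85, 5.91 and 5.52. Both other Krtdap probes were detected in T alone, at 1844 and 2166. Suprabasin (Sbsn), another suprabasal gene 35.1 kb away on chromosome 7, did not share this, with 271 for MMA, 509 for LLS, 337 for LMA and 436 for T. Loricrin, the main envelope protein of the epidermis, had 5.67 in MMA, not well above background, 30.9 in LLS, 62.4 in LMA and 97.9 in T. It was the only member at least 2-fold lower in LLS than in LMA, at 2.02-fold, with a scanner error of 0.32 on a difference of -1.01, and it was less than 2-fold lower under normexp, quantile or cyclic loess processing and in the deposited table.

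The Sprr and Lce families gave 1 gene with a large difference. Sprr2f, a small proline-rich gene known from uterine epithelium, had 5.75 in MMA, 5.09 in LLS and 4.47 in LMA, none well above background, and 247 in T, at least 11.3-fold above LLS (3.40 with normexp). Sprr2a2 was even across tissues, between 72376 in LMA and 91095 in MMA, by a probe whose 2 companion probes were not well above background on any array. Sprr2b and Sprr2k differed by less than 2-fold in every comparison, and their probes share a run of 28 bases, so they are uncertain. Sprr4 was detected in MMA alone, at 44.4, with LLS at least 2.03-fold and LMA at least 2.39-fold lower, and under 2-fold in both with normexp (1.29 and 1.45). The 6 detected Lce genes (Lce1c, Lce1h, Lce1j, Lce1l, Lce3d and Lce6a) differed by less than 2-fold in every comparison made, with detected signals of 23.8 to 167. The Lce3d probe shares a run of 25 bases with that of Lce3b and is uncertain.

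Among the transglutaminases, Tgm2, the widely expressed tissue transglutaminase, gave 839 for MMA, 102 for LLS, 158 for LMA and 798 for T. Both E11.5 tissues were low, with LLS 8.20-fold below MMA and T 7.80-fold above LLS, and 5.35-fold and 5.09-fold with normexp. Tgm1, the enzyme that anchors the envelope in keratinocytes, gave 27.6 for MMA, 58.1 for LLS, 28.5 for LMA and 61.7 for T. LLS was 2.04-fold above LMA and 2.11-fold above MMA, and with normexp these were 1.38-fold and 1.24-fold. LLS against MMA was also under 2-fold with quantile normalization and in the deposited table. Tgm5, an epidermal transglutaminase, was detected in T alone at 37.0. Tgm3, an envelope enzyme of hair and epidermis, was even across tissues, between 760 in T and 939 in MMA, by a probe whose companion probe was not well above background on any array.

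**Figure D4:**
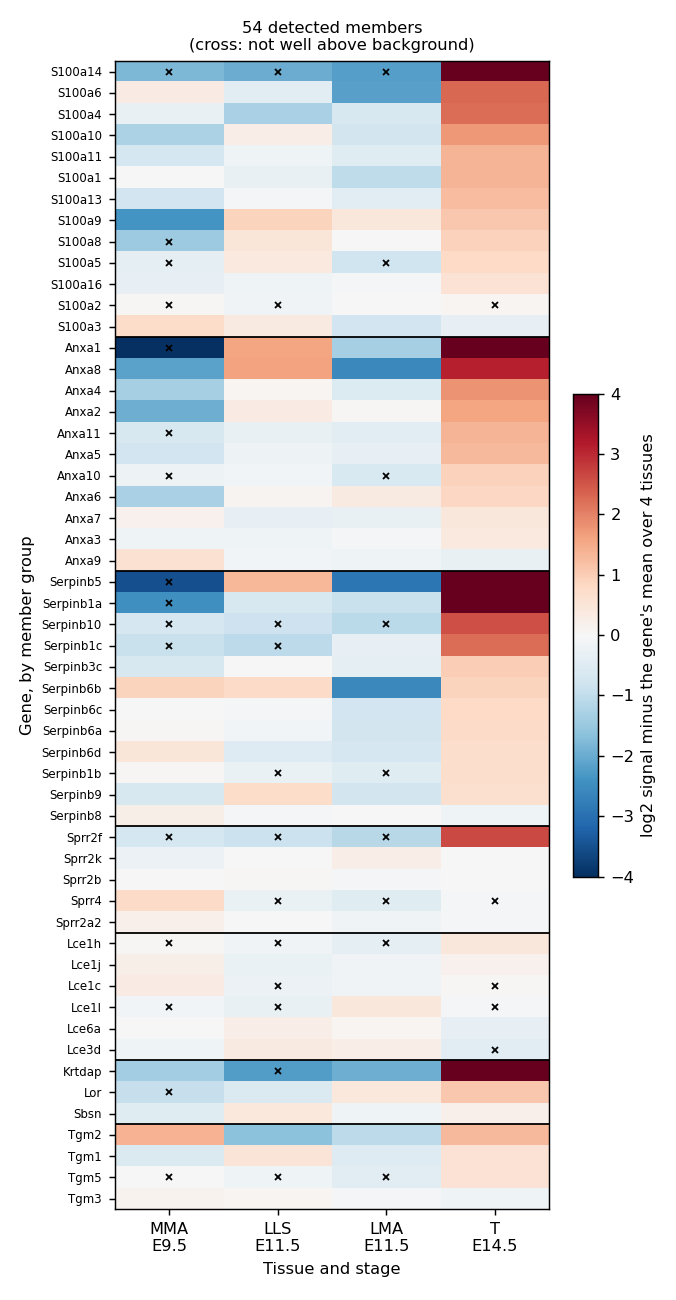
Log2 signal of each of the 54 detected members minus its mean over the 4 tissues (colour scale, cut at -4 and 4), with genes down the page grouped by family and ordered by their value in T, and crosses where the signal was not well above background. The T column is highest for most S100, annexin and serpin genes, MMA is lowest for Anxa1, Anxa2, S100a9 and Serpinb1a, and Serpinb6b is low in LMA.

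The series design names ROKU, a method that marks a gene as specific to a tissue when that tissue's value is an outlier among all tissues. Its outlier step, with at most 1 outlying tissue and a further requirement of a 2-fold gap to the nearest other tissue, marked 18 of the 54 detected members as specifically high in T (7.93% of all detected genes). They were 7 S100 genes (S100a1, S100a4, S100a6, S100a10, S100a11, S100a13 and S100a14), 4 annexins (Anxa4, Anxa5, Anxa10 and Anxa11), 5 serpins (Serpinb1a, Serpinb1c, Serpinb3c, Serpinb5 and Serpinb10), Krtdap and Sprr2f. Specifically low in MMA were 5 members, Anxa1, Anxa2, Anxa6, S100a8 and S100a9 (4.16% of all detected genes), and specifically low in LMA was Serpinb6b (0.841%). No member was specifically high in MMA (2.47% of all detected genes), LLS (0.321%) or LMA (0.669%), and none was specifically low in LLS (0.0857%) or T (2.53%). Anxa8 was marked for no tissue. Some of these marks rest on gaps that were under 2-fold with normexp. T minus LLS was then 0.29 for Anxa10, 0.77 for Anxa11, 0.92 for S100a1 and 0.59 for Serpinb3c. LMA minus MMA was 0.53 for S100a8.

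The genes lie in few places of the genome, and high signals in T did not spread over whole clusters. Probe positions are those of the array files, on mouse build mm9. On chromosome 3, 48 members lie within 3053 kb between positions 90315191 and 93368496, a region known as the epidermal differentiation complex. Of these, 25 were detected somewhere and 9 of 21 compared members were higher in T than in LLS (12.6% of all genes), 7 of them S100 genes. In the same region the Sprr genes, within 276.9 kb, contributed 1 of 4 compared (Sprr2f). The Lce genes, within 413.6 kb, contributed 0 of 4. S100a13 (90319950), S100a14 (90332439) and S100a16 (90346529) lie within 26.6 kb, and S100a13 and S100a14 were higher in T while S100a16 depended on the probe. The serpins form a cluster of 12 on chromosome 1, between 108778585 (Serpinb5) and 109504924 (Serpinb8), with 4 detected and 3 of them higher in T than in LLS. Another 15 lie on chromosome 13, between 32934693 (Serpinb1a) and 34009855 (Serpinb6a), with 8 detected and 3 higher, beside the same 12.6% of all genes. The annexins are scattered, with Anxa1 on chromosome 19 (20447938 to 20447997), Anxa2 on chromosome 9 (69339532 to 69339591) and Anxa8 on chromosome 14 (34913661 to 34913720).

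The sequences upstream of 5 members with large differences are shown because these genes had high signals together in T and, for Anxa1, Anxa8 and Serpinb5, in LLS against LMA. Each is the 250 bases before the start site listed first for the gene by RefSeq on build GRCm38.p6, written 5′ to 3′ on the gene's strand. Capitals mark matches to the AP-1 motif, the TATA box letters TATAAA and the Grainyhead motif AACNGGTT, searched on both strands. For AP-1 the letters were TGANTCA with any base at N, which is wider than the usual TGACTCA or TGAGTCA. The positions are chr7:30787655-30787904 (plus strand) for Krtdap, chr3:92364937-92365186 (plus) for Sprr2f, chr1:106860925-106861174 (plus) for Serpinb5, chr19:20390672-20390921 (minus) for Anxa1 and chr14:34085729-34085978 (plus) for Anxa8.
Krtdap: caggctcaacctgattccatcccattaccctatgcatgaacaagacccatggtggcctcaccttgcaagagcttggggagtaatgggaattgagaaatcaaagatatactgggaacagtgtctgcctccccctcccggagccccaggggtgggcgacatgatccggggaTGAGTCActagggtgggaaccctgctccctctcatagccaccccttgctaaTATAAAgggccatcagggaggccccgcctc
Sprr2f: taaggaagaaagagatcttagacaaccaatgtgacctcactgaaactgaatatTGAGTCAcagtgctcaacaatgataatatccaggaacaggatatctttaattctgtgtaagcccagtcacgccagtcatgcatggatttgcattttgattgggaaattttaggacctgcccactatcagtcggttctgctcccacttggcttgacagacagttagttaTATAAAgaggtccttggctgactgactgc
Serpinb5: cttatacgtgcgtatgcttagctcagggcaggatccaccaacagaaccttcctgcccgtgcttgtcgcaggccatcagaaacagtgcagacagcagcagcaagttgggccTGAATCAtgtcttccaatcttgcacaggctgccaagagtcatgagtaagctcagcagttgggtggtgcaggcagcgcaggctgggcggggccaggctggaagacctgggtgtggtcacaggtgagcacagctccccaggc
Anxa1: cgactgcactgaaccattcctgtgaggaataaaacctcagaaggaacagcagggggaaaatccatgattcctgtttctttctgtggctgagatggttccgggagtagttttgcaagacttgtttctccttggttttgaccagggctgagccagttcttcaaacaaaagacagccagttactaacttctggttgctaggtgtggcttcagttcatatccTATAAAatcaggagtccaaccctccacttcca
Anxa8: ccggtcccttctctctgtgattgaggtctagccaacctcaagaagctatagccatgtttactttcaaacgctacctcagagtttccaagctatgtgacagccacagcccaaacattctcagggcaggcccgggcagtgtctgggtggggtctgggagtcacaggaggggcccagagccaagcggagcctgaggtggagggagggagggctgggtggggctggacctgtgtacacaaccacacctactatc

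In Krtdap the AP-1 letters begin 81 bases and the TATA box letters 30 bases before the start site, and in Sprr2f they begin 197 and 29 bases before it. Serpinb5 has the AP-1 letters, in the wider form TGAATCA, 140 bases before its start and no TATA box letters. Anxa1 has the TATA box letters 32 bases before its start and no AP-1 letters. Anxa8 has none of the 3 marked motifs in this window. The letters CACCC, which Klf factors are known to bind, were also searched on both strands and are not marked, being in 51.3% of all promoters and in 43 of the members' 83 (51.8%). They occur in the windows of Krtdap, Serpinb5 and Anxa8 and not in those of Sprr2f or Anxa1. RefSeq listed a promoter for 83 of the 94 members and for 27025 genes in all. The AP-1 letters were in 23 of these 83 (27.7%) and in 6.87% of all promoters, and the TATA box letters in 31 (37.3%) and in 13% of all. The Grainyhead letters were in 1 of 83 and in 1.71% of all. Of the 18 members specifically high in T, 15 had a listed promoter, and 6 of these held the AP-1 letters and 5 the TATA box letters. Genes of a cluster are related by duplication and may share promoter sequence, so these counts are not over independent sequences, and a match of letters is not a binding site.

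Other genes of stratified epithelium, none of them a member, showed a similar course. Of 43 measured genes for other envelope, desmosome and stratification proteins, 32 were detected somewhere, and 21 of 31 compared were at least 2-fold higher in T than in LLS, with 0 lower and a median of 1.54. Beside this and the later lists, 12.6% of all genes were higher in T than in LLS and 3.57% in LLS than in LMA. The keratin gene Krt6a gave 39.3 for MMA, 700 for LLS, 68.3 for LMA and 58730 for T. Dermokine (Dmkn), which is secreted in the spinous layer, was detected in T alone and was at least 7.19 higher on the log2 scale than in LLS. The plakophilin gene Pkp1 (5.31), the oral keratin gene Krt13 (4.10), envoplakin (Evpl, 1.35), periplakin (Ppl, 1.17) and desmoplakin (Dsp, 1.54) were also higher in T than in LLS. The late epidermal genes Flg2, Hrnr, Rptn and Kprp were not well above background in any tissue. In LLS against LMA, 10 of 25 were higher and 0 were lower (median 0.67), among them Dsp (2.76), Evpl (2.46) and Ppl (1.93). The counts against LMA were 22 of 31 higher and 1 lower in T with a median of 2.68, and those against MMA 21 of 29 higher in T with 0 lower.

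Regulators of stratified epithelium were higher in LLS than in LMA for 12 of 17 compared genes, with 0 lower and a median of 1.57. Klf5 was 2.32 higher, and Grhl3, a factor of the periderm and of barrier formation, was 2.69 higher. In T against LLS, 9 of 19 were higher and 1 was lower (median 0.95). Klf4, a factor of the suprabasal layers, gave 265 for MMA, 1494 for LLS, 663 for LMA and 12903 for T, 3.11 higher in T than in LLS, and Ehf was detected in T alone. Grhl3 was the gene that was lower, by -1.26, while Trp63, the basal-layer regulator, differed by -0.25.

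Signals of general epithelial markers also differed between the tissues. Of 26 genes that mark epithelium of any kind, the number detected was 25 for MMA, 25 for LLS, 24 for LMA and 26 for T. Their summed signal was 77089 for MMA, 51642 for LLS, 14628 for LMA and 298556 for T. Of the sum in T, 251400 came from Krt5, Krt14 and Krt15, keratins of the basal layer of stratified epithelium. Without these the sum was 73799 for MMA, 36260 for LLS, 10099 for LMA and 47156 for T. Krt8 and Krt18 made up a large part of this remainder, so its order of tissues largely follows them. Krt8 gave 14856 for MMA, 6212 for LLS, 597 for LMA and 4757 for T. Krt18 gave 41655 for MMA, 13510 for LLS, 3264.5 for LMA and 20545 for T. In LLS against LMA, 20 of 25 were higher and 0 were lower (median 2.28). In LLS against MMA, 5 of 25 were higher and 4 were lower (median -0.23), and Anxa1, Anxa8 and Serpinb5 were higher in LLS there too. In T against LLS, 8 of 26 epithelial genes were higher in T (12.6% of all genes) while 2 were lower. The median was 0.53, against 0.91 for the 50 compared members. In T against LMA, 23 of 26 were higher, with a median of 2.95. In LMA against MMA, 2 of 25 were higher and 19 were lower (median -2.49), and Serpinb6b was lower in LMA there too. In pooled tissue, fewer cells of a type and less RNA per cell cannot be told apart, and the part of epithelial content in the members' differences was not tested.

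Of 9 periderm genes, 7 were detected in every tissue and Krt6b and Ovol1 in none. Their summed signal was 5443 for MMA, 18373 for LLS, 3678 for LMA and 118948 for T. LLS exceeded LMA in 7 of 7 (median 2.26) and MMA in 5 of 7 (median 1.79), which are the comparisons in which Anxa1, Anxa8 and Serpinb5 were higher in LLS. T exceeded LLS in 4 of 7, with 1 lower (Grhl3) and a median of 1.34. The part of periderm in these differences was not tested either.

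**Figure D5:**
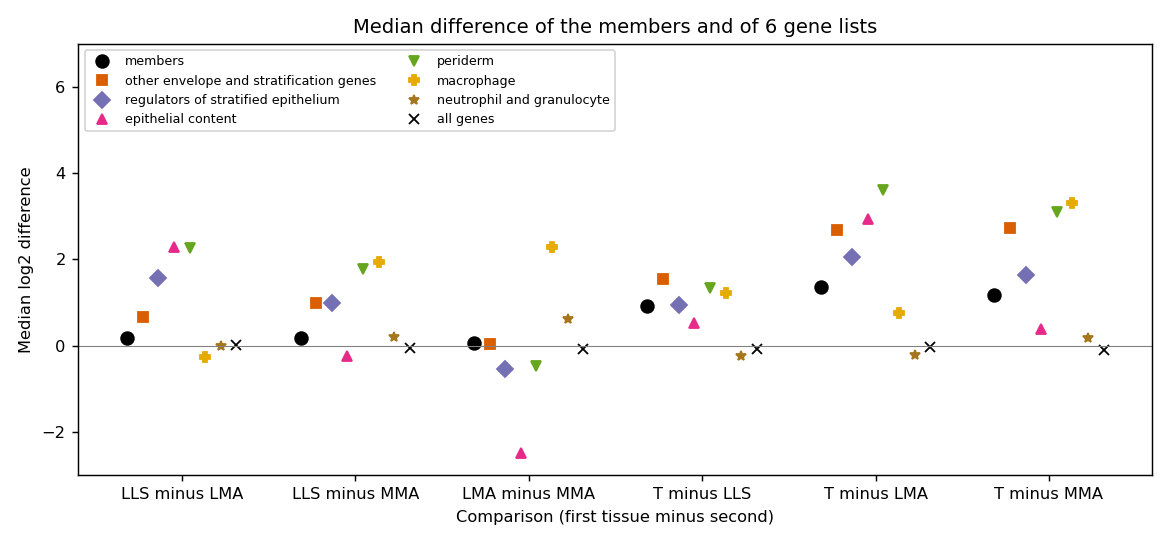
Median log2 difference (vertical axis) of the compared members, of 6 gene lists without members and of all genes in the 6 comparisons (horizontal axis, first tissue minus second). Epithelial content stands at 2.28 for LLS minus LMA while the members stand at 0.17, and it stands at 0.53 for T minus LLS while the members stand at 0.91.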

How the data were processed

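The authors deposited the scanner output of 4 single-colour arrays as text tables of spot intensity, made with Agilent Feature Extraction 10.7.1.1 per the file headers, whereas the submitters' processing notes name version 9.5.1.1. The processed intensity is already background-corrected. A table of normalized intensities of the same arrays was also deposited by the authors, and its log2 values served as an alternative. How it was normalized is not given in the sources used here. Control spots and outlier-flagged spots were left out, repeated spots were averaged, and log2 intensity minus the array's 75th percentile was compared. The number of arrays, 1 per tissue on 1 slide, limits the precision, and no p-value was computed. Probe positions are on mm9. The members and gene lists were chosen with earlier results of these data known. Members at least 4-fold apart in any comparison and the 10 with the highest mean signal were named in full, with up to 5 higher and 5 lower per comparison, and others by range. Python 3.11.15, pandas 2.3.3, numpy 2.4.6 and, for the alternative normalizations, R 4.3.3 with limma 3.58.1 were used. The code was tested on simulated data. Alternatives were normexp background correction, quantile and cyclic loess normalization, no filter on dim probes, the median over a gene's probes, the deposited table and a 4-fold threshold.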

Additional observations from a re-analysis of the deposited data

How the results depend on the processing

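The members had 123 differences of 2-fold or more over the 6 comparisons, and none of them changed sign under normexp background correction, quantile normalization, cyclic loess, no filter on dim probes, the median over probes or the deposited table. At least 2-fold remained 84 under normexp, 115 under quantile normalization, 119 under cyclic loess, 123 without a filter, 122 with the median over probes and 115 in the deposited table. For LLS against LMA the count of higher members (10) was 6 under normexp, 16 without a filter and 4 at 4-fold, and that of lower members (1) was 0 under normexp, quantile normalization, cyclic loess, the deposited table and at 4-fold, and 8 without a filter. For LLS against MMA, higher members (12) numbered 5 at 4-fold, and lower members (4) numbered 1 under normexp and 1 at 4-fold. For LMA against MMA, higher members (7) numbered 4 under normexp, 15 without a filter and 2 at 4-fold, and lower members (6) numbered 3 under normexp and at 4-fold. Higher members in T numbered 11 against LLS (24 at 2-fold) and 16 against LMA (30 at 2-fold) at 4-fold. Lower members in T without a filter numbered 4 against LLS and 5 against LMA, where 0 were counted with it, and against MMA (1) they were 0 under normexp, cyclic loess and at 4-fold and 3 under quantile normalization, without a filter and in the deposited table. Members specifically high in MMA (0) numbered 1 under quantile normalization and in the deposited table, and members specifically high in LMA (0) numbered 1 without a filter. Without a filter all 94 members were compared, dim ones included. The normexp offset shrinks folds of dim probes by construction, and the cause of the other shifts was not tested. The all-gene median shifted under cyclic loess by 0.117 for LLS minus MMA, 0.132 for LMA minus MMA, 0.161 for T minus LLS, 0.135 for T minus LMA and 0.279 for T minus MMA, and no filter moved it by -0.108 for LLS minus MMA, 0.157 for T minus LLS, 0.111 for T minus LMA and 0.136 for T minus MMA. Another probe of the same gene could be compared for 28 of the called differences, in 8 genes. Some had more than 1 such probe, which gave 38 comparisons, with 36 in the same direction and 33 also 2-fold or more, and the others were 4 of the dimmest Anxa2 probe and 1 of the second S100a10 probe. No paired analysis was possible because each tissue has 1 array. The limits are the single pool per tissue, the shift of stage with region, dim probes that give bounds only, and paralogs whose probes share bases.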

Other observations

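Genes for receptors of S100 and annexin proteins and for proteases known as partners of clade B serpins were looked at beside the members. Of 19 such genes 17 were detected somewhere. In T against LLS, 5 of 16 compared were at least 2-fold higher (12.6% of all genes) and 0 were lower, with a median of 0.24. The 5 were the scavenger receptor gene Cd36 (at least 3.51 on the log2 scale), the lysosomal protease genes Ctsk (2.17) and Ctss (1.58), the urokinase receptor gene Plaur (1.91) and the urokinase gene Plau (1.71). Ager, the gene for the RAGE receptor of S100 proteins, and Tlr4, a receptor of calprotectin, differed by less than 2-fold in every comparison. Granzyme B (Gzmb), the target of Serpinb9, was detected in T alone at 29.6.

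Among 16 S100 and serpin genes outside the name rule, 11 were detected somewhere. Of 10 compared, 1 was at least 2-fold higher in T than in LLS, near the share of all genes (12.6%). It was the glial and cartilage gene S100b, at least 3.50 higher on the log2 scale. S100b had 48.9 in LMA and 247 in T and was not well above background in MMA or LLS. S100g, the calbindin of the gut, was detected in MMA alone at 160. The collagen chaperone gene Serpinh1 and Serpine2 differed by less than 2-fold in every comparison.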
